A study of Mus musculus with 6 samples.

Results

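The 44 interferon-stimulated genes described here were chosen by name, from symbols of genes that interferons are known to induce, with the genes of class I antigen presentation left out. Earlier results of these data were known when the list was chosen, so counts over the list describe it and are no independent test. All 44 had a row, matched by Ensembl gene identifier, among the 52550 rows of the deposited table. They comprise 3 genes of the ISG15 system, 5 transcription factors, 4 nucleic acid sensors, 14 antiviral effectors, 10 GTPases of the IRG and GBP families and 8 other induced genes. RNA was sequenced from the hearts of 6 C57BL/6 mice, 3 wild type (WT) and 3 lncRNA-DRR-/- (KO), which lack a long noncoding RNA. All 6 mice had their left anterior descending coronary artery tied at 8 weeks of age, and their hearts were taken at 10 weeks, 2 weeks after the infarct. No sham-operated heart was analysed here, so the values compare infarcted with infarcted hearts. How the deletion was made, whether it acts in every cell, and which part of the heart was used are not given in the labels. No row could be identified as lncRNA-DRR, so the genotype was not checked in the data. The labels number the mice 1 to 3 within each genotype and name no litter, operation day or sex.

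The values are FPKM, fragments per kilobase of transcript and per unit of mapped fragments, a level corrected for transcript length and sequencing depth. Approximate depth was 5190000 to 9400000 fragments in WT and 6870000 to 8160000 in KO libraries. KO replicate 3 differed in sex-linked transcripts from the other 5 libraries: it held 25.6 FPKM of Xist, the RNA that silences an X chromosome in female cells, against at most 0.0742 FPKM elsewhere. Its Ddx3y, a Y-linked helicase gene, was at 0.028 FPKM against 13.0 to 16.2 FPKM. All 8 cardiomyocyte markers were at 22.5 FPKM or more in every library. Across 14656 tested genes 55 (0.375%) were called between genotypes by limma at an adjusted p under 0.05, and 15 (0.102%) were called lower in KO. A FPKM mean is given with its SD over 3 hearts. A log2 difference is KO minus WT, on log2 of the scaled FPKM plus 0.5, with its standard error, and understates the change of low genes.

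Interferons are secreted signals by which cells warn each other of viruses and of misplaced nucleic acid. Type I interferons act through their receptor and the kinases JAK1 and TYK2 to activate a complex that includes STAT2 and IRF9 and binds the interferon-stimulated response element (ISRE). Interferon gamma acts through its own receptor, JAK1 and JAK2, and its targets carry the gamma-activated site (GAS). The induced genes include sensors and transcription factors that amplify the response, effectors that block viral RNA and entry, GTPases that attack the vacuoles of intracellular pathogens, and genes that restrain the response. In the infarcted heart, macrophages that take up debris of dying cells are known for a type I interferon response that depends on IRF3.

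Promoter sequence shows which of these elements a member carries near its start site. RefSeq promoter windows of GRCm38.p6, from 250 bases before to 50 after the start site, were available for 33 of the 44 members. Both strands were searched for the ISRE core GAAANNGAAA and for the GAS letters TTCNNNGAA, which read the same on both strands. The ISRE letters were present in 20 of 33 members (60.6%) against 1079 of 27025 genes with a window (3.99%). The GAS letters were present in 12 of 33 members (36.4%) against 2582 of all genes (9.55%). Both stood in 8 members (24.2%; 0.614% of all genes) and neither in 9 (27.3%; 87.1% of all genes). A match describes the letters only and is not evidence that a factor binds there.

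The first 5 stretches show how ISRE letters are arranged, from a single copy to overlapping copies, in an ISG15-system gene, 2 antiviral effectors and 2 GTPases. Capitals mark matches to either motif, and TTTC is the reverse complement of GAAA. Isg15 lies at chr4:156200850-156200921 on the minus strand, Ifit1 at chr19:34640760-34640838 on the plus strand, Bst2 at chr8:71537562-71537633 on the minus strand, Irgm1 at chr11:48871421-48871475 on the minus strand and Gbp2 at chr3:142620579-142620638 on the plus strand. Each is printed along the gene's own strand.
Isg15: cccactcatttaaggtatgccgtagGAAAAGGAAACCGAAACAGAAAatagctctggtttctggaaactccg
Ifit1: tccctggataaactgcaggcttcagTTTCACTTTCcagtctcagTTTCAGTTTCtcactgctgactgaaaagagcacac
Bst2: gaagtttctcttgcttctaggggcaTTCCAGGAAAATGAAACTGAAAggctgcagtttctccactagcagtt
Irgm1: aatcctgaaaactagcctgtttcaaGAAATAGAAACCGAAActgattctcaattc
Gbp2: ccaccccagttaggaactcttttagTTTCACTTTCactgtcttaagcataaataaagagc
Isg15 carried 3 overlapping matches to the ISRE core, in a stretch that starts 103 bases and ends 32 bases before its start site. Ifit1 carried 2 separate matches on the reverse strand and Gbp2 carried 1. Bst2 carried GAS letters that overlap its first ISRE match by 3 bases.

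A second set of stretches shows one arrangement that members share: GAS letters followed after 2 bases by ISRE letters. Igtp lies at chr11:58199486-58199555 and Irgm2 at chr11:58214877-58214947, both on the plus strand, and Tgtp2 at chr11:49064248-49064318 on the minus strand.
Igtp: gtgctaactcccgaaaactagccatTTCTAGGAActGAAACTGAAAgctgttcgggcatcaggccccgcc
Irgm2: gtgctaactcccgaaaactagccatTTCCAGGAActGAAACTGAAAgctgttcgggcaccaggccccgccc
Tgtp2: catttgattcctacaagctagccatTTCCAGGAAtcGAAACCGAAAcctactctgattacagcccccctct
This order and spacing occurred in 5 of the 27025 genes with a window, namely Igtp, Irgm2, Tgtp2, the near copy Tgtp1 of the last, and the predicted gene Gm12185. The first 4 encode GTPases of the IRG family. All 3 members among them stood lower in KO hearts, as did 38 of all 43 tested members. Gm12185 was too low to be tested, at 0.603, 1.03 and 0.353 FPKM in WT hearts and 0.363, 0.225 and 0.0623 FPKM in KO replicates 1 to 3.

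Interferon-stimulated genes stood lower in KO than in WT hearts in most cases, and no single member passed the test over all genes. Of the 44 members 43 could be tested, and 38 of the 43 had a log2 difference below 0, against 50.8% of all tested genes. The median difference was -0.205, or -0.004 over all tested genes, and the members ranged from -0.93 (Cd274) to 0.22 (Rtp4). limma called 0 of 43 members at an adjusted p under 0.05, and none under any alternative run. At an unadjusted p under 0.05, 11 members were lower and 0 higher, against 4.69% and 3.79% of all tested genes. Oas3, the largest of the oligoadenylate synthetases, was not tested: it stood at 0.541, 0.489 and 0.381 FPKM in WT hearts and at 0.336, 0.328 and 0.257 FPKM in KO replicates 1 to 3. Mx1 and Mx2 were the tested members with a library below 0.5 FPKM, and both passed the filter through libraries of both genotypes.

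**Figure D1:**
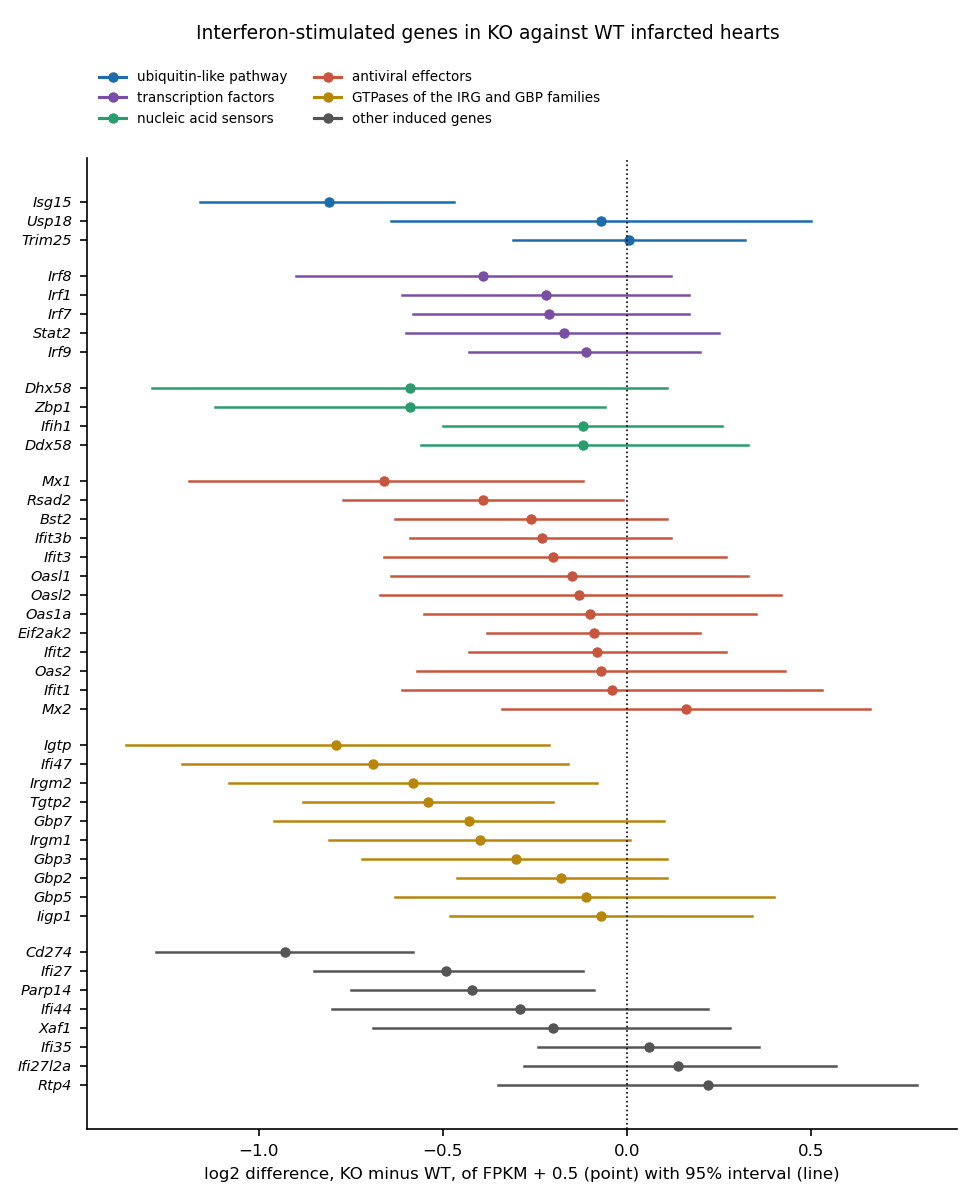
Log2 difference KO minus WT (x axis) of each of the 43 tested members, grouped by role on the y axis, with bars for the 95% confidence interval. Points range from -0.93 to 0.22, with 38 of 43 left of 0.

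By role, the lowest median belonged to the GTPases (-0.414, 10 of 10 lower), followed by the sensors (-0.357, 4 of 4), the 8 other induced genes (-0.248, 5 of 8), the transcription factors (-0.207, 5 of 5), the antiviral effectors (-0.125, 12 of 13) and the ISG15 system (-0.072, 2 of 3). Differences between roles were not tested. Members with ISRE letters had a median of -0.23 (19 of 19 tested lower), those with GAS letters -0.24 (11 of 12), those with both -0.34 (8 of 8) and those with neither -0.21 (8 of 9). Most members of each class stood lower, with or without the letters in the window.

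The 3 KO hearts were not alike. KO replicates 1 and 3 held less of the members than any WT heart in most cases, while KO replicate 2 ranked with the WT hearts. Of the 44 members, 36 in KO replicate 1 and 35 in KO replicate 3 were below every WT library, against 8 in KO replicate 2. KO replicate 2 had the highest FPKM of all 6 libraries for 16 members and was above all 3 WT libraries for 18. When FPKM was scaled between libraries, those 2 counts were 12 and 14. The scaled counts below every WT library were 32, 12 and 35 in KO replicates 1 to 3. The same counts over all tested genes were not computed. Summed over the members, FPKM was 461.7, 474.7 and 401.0 in WT replicates 1 to 3 and 326.0, 479.6 and 348.7 in KO replicates 1 to 3. The scaled sums were 429.5, 477.9 and 422.5 in WT and 341.7, 451.2 and 358.1 in KO replicates 1 to 3. On both kinds of sum the genotypes overlapped.

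**Figure D2:**
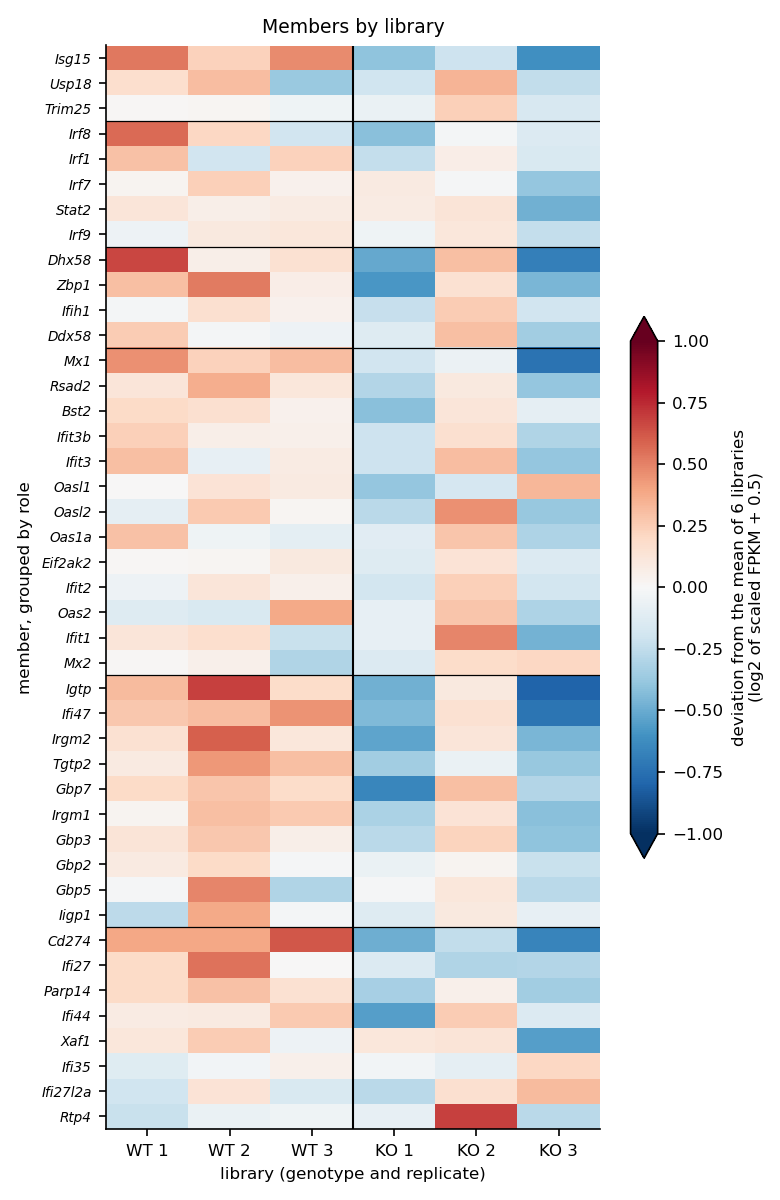
Heat map of the 43 tested members (rows, by role) in the 6 libraries (columns), coloured by the deviation of scaled log2(FPKM + 0.5) from the member's mean over all libraries, on a scale from -1 to 1. KO replicates 1 and 3 are low for most members, and KO replicate 2 resembles the WT libraries.

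All 3 KO libraries were below all 3 WT libraries for 6 of 43 tested members, against 7.5% of all tested genes, and for 9 members when FPKM was scaled between libraries, against 7.51%. These 6 were Cd274, Isg15, Tgtp2, Ifi47, Mx1 and Ifi27, and Igtp, Rsad2 and Parp14 joined them on scaled FPKM. No member had all KO libraries above all WT libraries. Without KO replicate 2, 29 of 43 members (67.4%) had both remaining KO libraries below all WT libraries, against 17.5% of all tested genes. This library was left out after its high values for the members were seen. Without another library in turn the count was 6 to 14 of 43: 14.0% of members against 10.8% of all tested genes without WT replicate 1, 16.3% against 11.1% without WT replicate 2 and 32.6% against 14.3% without WT replicate 3. It was 14.0% against 10.1% without KO replicate 1 and 16.3% against 13.6% without KO replicate 3. The members' median difference was -0.323 without KO replicate 2 and -0.106 without KO replicate 3, the library with Xist. The number lower was 40 and 31 of 43 in those fits, and no member was called in either.

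Markers of other cell types also moved between libraries, in bulk hearts where fewer cells of a type and less RNA per cell cannot be told apart. Summed FPKM of 6 markers of all leucocytes was 249, 192 and 158 in WT and 156, 214 and 140 in KO replicates 1 to 3. Summed FPKM of 12 macrophage markers was 651, 504 and 430 in WT and 428, 573 and 430 in KO. In both lists KO replicate 2 held the highest sum of the KO hearts, as it did for the members. A difference below 0 was found for 10 of 12 macrophage markers and 6 of 6 leucocyte markers, against 50.8% of all tested genes.

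KO replicate 2 also had the lowest sum of the cardiomyocyte markers (6780 FPKM, against 8410 to 10900 in the other 5 libraries) and the highest sum of the fibroblast markers (2370 FPKM, against 1030 to 2060). Being lower was not confined to leucocyte lists: 8 of 8 cardiomyocyte markers were lower in KO (median difference -0.13). Of the fibroblast markers 7 of 8 were higher (median 0.31). Neutrophil, T and natural killer cell, conventional dendritic cell, and B and plasma cell markers summed lower in each KO library than in each WT library. For neutrophils the sums were 52.0 to 76.7 FPKM in WT hearts and 21.2 to 35.8 FPKM in KO, with 7 of 7 tested markers lower and 1 called (S100a8, limma adjusted p = 0.047). S100a8 was not called when any 1 library was left out (limma adjusted p = 0.0618 to 0.197). For T and natural killer cells they were 7.76 to 12.1 FPKM and 3.22 to 6.2 FPKM, with 6 of 13 markers testable and 6 of 6 lower. Of these 6, Lck passed the filter through WT libraries alone (0.594 to 1.37 FPKM in WT and 0.237 to 0.418 FPKM in KO hearts), which fixed its direction. For conventional dendritic cells they were 9.54 to 13.9 FPKM and 7.83 to 9.15 FPKM, with 6 of 6 lower. For B and plasma cells they were 589 to 2120 FPKM and 230 to 556 FPKM, with 6 of 6 tested markers lower.

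Of the monocyte markers 6 of 7 were lower and 0 called, with a median difference of -0.587. Their sum, 52.1 to 97.7 FPKM in WT and 49.4 to 90.5 FPKM in KO hearts, was mostly Ace, the one marker above 0 (39.0 to 76.1 FPKM over all libraries). Ccr2, the receptor that draws monocytes from the marrow, was lower in every KO than in every WT heart (-1.07 ± 0.22, limma adjusted p = 0.142). Treml4 stood at 0.667, 0.68 and 0.593 FPKM in WT hearts and at 0.25, 0.184 and 0 FPKM in KO replicates 1 to 3. It passed the filter of 0.5 FPKM through WT libraries alone, so its lower KO values follow from the filter and carry no weight. Plasmacytoid dendritic cells, which make much of the type I interferon in viral infection, left little trace: 1 of 6 markers could be tested, the sums were 0.341 to 2.8 FPKM and 0.339 to 0.958 FPKM, and Klk1 was listed at 0 in all libraries. Endothelial markers were lower in 2 of 8 cases, with sums of 447 to 471 FPKM in WT and 489 to 545 FPKM in KO, higher in each KO library. Among them Fabp4 was higher in every KO heart (114 to 133 FPKM in WT and 158 to 219 FPKM in KO). Kdr was lower in every KO heart (38.4 to 43.0 FPKM and 26.3 to 28.4 FPKM). Erythroid markers were lower in 5 of 6 cases, with sums of 6300 to 11000 FPKM and 4400 to 7280 FPKM. The part of cell composition and of sex in the members' differences was not tested.

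**Figure D3:**
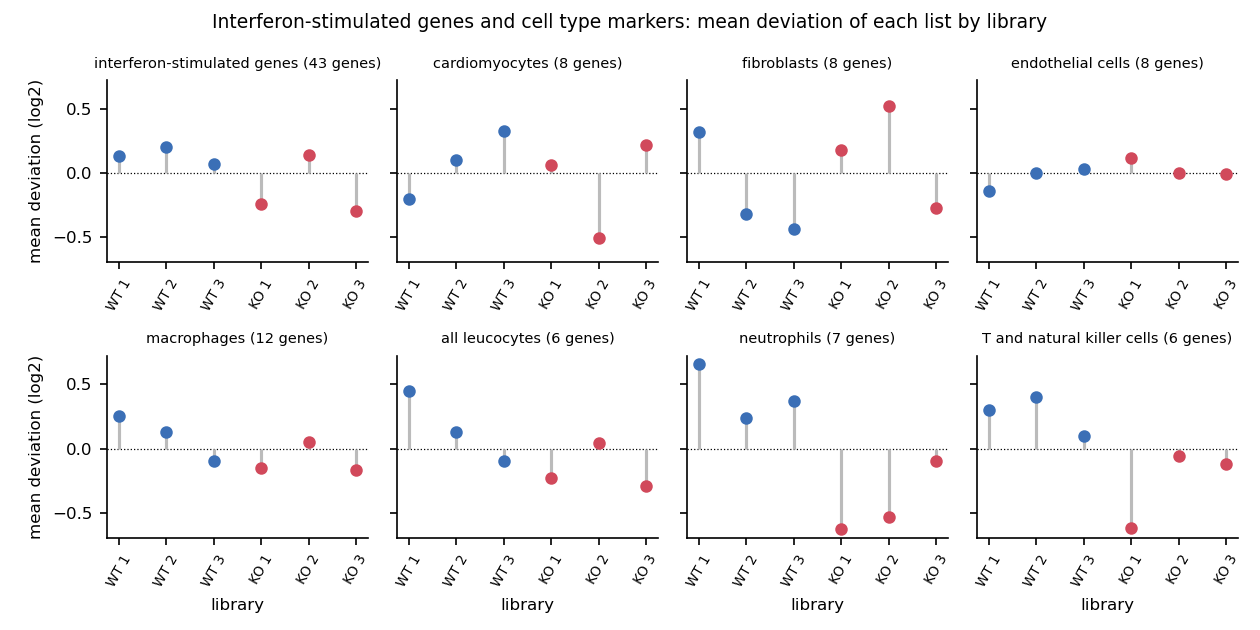
Mean deviation from each gene's mean over the 6 libraries (y axis, log2) for the members and for marker lists, by library (x axis), with WT in blue and KO in red. The members sit at 0.13, 0.20 and 0.07 in WT and at -0.24, 0.14 and -0.30 in KO replicates 1 to 3, and KO replicate 2 is lowest for cardiomyocytes (-0.51) and highest for fibroblasts (0.52).

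Of 22 interferon and related ligand genes 19 were listed at 0 in all 6 libraries, and none could be tested. A listed 0 does not show that a transcript was absent, since all 37 mitochondrial genes, which every heart cell uses, are listed at 0 in every library too. Ifng, the gene of interferon gamma, was listed at 0.0568, 0.356 and 0.206 FPKM in WT hearts and at 0 in the 3 KO libraries. Ifnz, a type I interferon gene, stood at 0, 0.0205 and 0.0442 FPKM in WT hearts and 0.0991, 0.116 and 0.061 FPKM in KO replicates 1 to 3. Il27, a subunit gene of interleukin 27, stood at 0.207, 0.14 and 0.377 FPKM in WT hearts and 0, 0 and 0.285 FPKM in KO. These values are below the 0.5 FPKM of the filter, and FPKM listed at 0 gives no fold.

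Receptor and kinase genes were above the filter, though Ifnlr1 lay close to it (0.659 to 0.944 FPKM in WT and 0.47 to 0.868 FPKM in KO hearts). Of 10 tested genes of the receptors and of the JAK-STAT relay 8 were lower, 0 were called, and the median difference was -0.09. Ifnar1 and Ifnar2, the type I receptor chains, differed by -0.07 ± 0.14 and -0.20 ± 0.13 (limma adjusted p = 0.939 and 0.766). Ifngr1 and Ifngr2, the interferon gamma receptor chains, differed by 0.16 ± 0.12 and 0.01 ± 0.13 (limma adjusted p = 0.801 and 0.993).

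Il10rb, a receptor chain shared by interferon lambda and interleukin 10, was below WT in all 3 KO hearts, at 25.6 to 29.1 FPKM in WT hearts and 20.1 to 23.5 FPKM in KO (-0.30 ± 0.13, limma adjusted p = 0.608). Tyk2 differed by -0.32 ± 0.16 (limma adjusted p = 0.66).

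Sensing genes upstream of the interferons were lower in 8 of 12 tested cases, with a median difference of -0.05 and 0 called. Tlr9, an endosomal receptor of DNA, stood at 3.5, 2.41 and 2.7 FPKM in WT hearts and at 2.05, 2.14 and 0.667 FPKM in KO replicates 1 to 3 (-0.74 ± 0.31, limma adjusted p = 0.583). All KO values were below all WT values, and the lowest was in KO replicate 3, without which the difference was -0.36. Tmem173, the gene of the DNA response adaptor STING, differed by -0.34 ± 0.15, and Ticam1, the adaptor of TLR3, by 0.23 ± 0.11 with all KO libraries above WT (limma adjusted p = 0.612 and 0.65).

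The 5 transcription factors among the members were all lower, and their genotypes overlapped in every case. Irf1, an early activator of interferon gamma targets and the most abundant of them, stood at 9.7, 6.26 and 8.14 FPKM in WT hearts and at 5.77, 8.11 and 6.32 FPKM in KO replicates 1 to 3. Each genotype held hearts near 6 and near 8 FPKM, and the difference was -0.22 ± 0.17 (limma adjusted p = 0.801). Irf8, a factor of myeloid cell development, was 3.41 ± 1.23 FPKM in WT hearts and 2.39 ± 0.525 FPKM in KO (-0.39 ± 0.22, limma adjusted p = 0.708). Irf7, which amplifies type I interferon production, was 5.91 ± 0.582 and 5.06 ± 0.996 FPKM. Stat2 and Irf9, which act together at the ISRE, differed by -0.17 ± 0.18 and -0.11 ± 0.13.

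Among the 4 nucleic acid sensors the differences fell into a larger and a smaller pair. Zbp1, a sensor of Z-form nucleic acid that triggers necroptosis, stood at 3.07, 3.38 and 2.24 FPKM in WT hearts and at 1.26, 2.67 and 1.44 FPKM in KO replicates 1 to 3. Only KO replicate 2 reached the WT range, and the difference was -0.59 ± 0.23 (95% interval -1.12 to -0.06, limma adjusted p = 0.517). Dhx58, which encodes the RIG-I-like regulator LGP2, had the same difference with a wider error (-0.59 ± 0.30, limma adjusted p = 0.674), from 1.64 ± 0.625 FPKM in WT hearts to 0.96 ± 0.626 FPKM in KO.

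Ddx58, which encodes the RNA sensor RIG-I, stood at 7.3, 5.5 and 5.14 FPKM in WT hearts and at 4.88, 7.51 and 4.21 FPKM in KO replicates 1 to 3. The highest and the lowest values were both in KO hearts, and the difference was -0.12 ± 0.19 (limma adjusted p = 0.918). Without KO replicate 3 it was 0.03. Ifih1, which encodes the RNA sensor MDA5, also differed by -0.12, with an SE of 0.16 (limma adjusted p = 0.892).

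The antiviral effectors were the largest role and among those nearest to no difference. Bst2, which encodes tetherin, a protein that holds budding virus at the cell surface, had the highest level of the role at 41.8, 37.8 and 33.4 FPKM in WT hearts and 24.1, 39.5 and 31.2 FPKM in KO replicates 1 to 3. KO replicate 2 lay among the WT hearts, and the difference was -0.26 ± 0.16 (limma adjusted p = 0.737). Ifit1, which binds viral RNA, stood at 9.68, 9.27 and 6.65 FPKM in WT hearts and at 7.43, 12.5 and 5.7 FPKM in KO. Its highest and lowest values were both in KO hearts, and the means of 8.54 ± 1.64 and 8.55 ± 3.55 FPKM were nearly equal (-0.04 ± 0.24, 95% interval -0.61 to 0.53, limma adjusted p = 0.984).

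Ifit2, Ifit3 and Ifit3b of the same family differed by -0.08, -0.20 and -0.23. Ifit3 and Ifit3b are near copies (97.8% identity over 97.4% of the transcript), so fragments could be shared between them. Their summed FPKM was 31.8 ± 5.6 in WT and 27.7 ± 8.53 in KO. The oligoadenylate synthetase family, whose catalytic members activate RNase L, lay between -0.15 (Oasl1) and -0.07 (Oas2) in its 4 tested members. Oas1a shares 97.5% identity with Oas1g, which is no member, and their summed FPKM was 4.9 ± 1.04 and 4.66 ± 1.47. Eif2ak2, the gene of the RNA-activated kinase PKR, differed by -0.09 ± 0.13.

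A pair of effectors had an unadjusted p under 0.05. Mx1, a gene of the dynamin-like GTPase family, stood at 1.35, 0.993 and 1.03 FPKM in WT hearts and at 0.598, 0.777 and 0.259 FPKM in KO replicates 1 to 3. All KO hearts were below all WT hearts, with means of 1.12 ± 0.197 and 0.545 ± 0.263 FPKM and a difference of -0.66 ± 0.23 (limma adjusted p = 0.467). Rsad2, which encodes viperin, an enzyme that makes a chain-terminating nucleotide, stood at 11.1, 12.1 and 9.65 FPKM in WT hearts and at 7.24, 10.8 and 6.87 FPKM in KO. KO replicate 2 overlapped WT there in FPKM, though not in scaled FPKM (-0.39 ± 0.16, limma adjusted p = 0.571).

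Mx2, the neighbour and relative of Mx1, is annotated as a polymorphic pseudogene and was the single effector above 0. It stood at 0.573, 0.558 and 0.318 FPKM in WT hearts and at 0.409, 0.707 and 0.667 FPKM in KO replicates 1 to 3. The genotypes overlapped at a level near the filter (0.16 ± 0.21, limma adjusted p = 0.889).

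The ISG15 system attaches a ubiquitin-like protein to other proteins. Isg15, the modifier itself, stood at 16.5, 12.3 and 14.0 FPKM in WT hearts and at 7.52, 9.59 and 6.53 FPKM in KO replicates 1 to 3. All KO hearts were below all WT hearts, KO replicate 2 included. The KO mean was 0.551 times the WT mean (7.88 ± 1.56 against 14.3 ± 2.12 FPKM), a difference of -0.81 ± 0.15 with a 95% interval of -1.16 to -0.47. Its limma adjusted p of 0.104 missed the threshold and was 0.118 to 0.295 when 1 library was left out. The estimate rests on few fragments, about 55 to 117 in a WT and 34 to 59 in a KO library. The annotation holds a partial copy, AC151275.1 (95.2% identity over 63.8% of Isg15), without a row of its own.

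The other members of the system did not share that difference. Usp18, the protease that removes ISG15 and blocks the type I receptor, was 1.78 ± 0.581 FPKM in WT hearts and 1.66 ± 0.623 FPKM in KO (-0.07 ± 0.24, limma adjusted p = 0.967). Trim25, a ubiquitin ligase that activates RIG-I, was 10.5 ± 0.852 and 10.6 ± 2.29 FPKM (limma adjusted p = 0.996). The difference between Isg15 and these 2 genes was not tested.

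The GTPases of the IRG family, which act at vacuoles of intracellular bacteria and parasites, held 4 of the 11 members with an unadjusted p under 0.05. Igtp, also called Irgm3, stood at 15.5, 18.5 and 12.4 FPKM in WT hearts and at 7.71, 13.1 and 6.18 FPKM in KO replicates 1 to 3. KO replicate 2 exceeded WT replicate 3 in FPKM, though not in scaled FPKM. The difference was -0.79 ± 0.24 (95% interval -1.36 to -0.21, limma adjusted p = 0.385). Irgm2 stood at 16.5, 21.0 and 14.2 FPKM in WT hearts and at 8.92, 15.9 and 9.64 FPKM in KO (-0.58 ± 0.21, limma adjusted p = 0.499). As for Igtp, the highest value was in WT replicate 2, and only KO replicate 2 was inside the WT range of FPKM. Their annotated genes overlap by 7974 bases on the same strand, so these values may share fragments. Both carry the GAS and ISRE letters 2 bases apart.

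Tgtp2, which carries the same arrangement, stood at 11.9, 14.1 and 12.3 FPKM in WT hearts and at 7.7, 10.5 and 7.69 FPKM in KO replicates 1 to 3. All KO hearts were below all WT hearts (-0.54 ± 0.14, 95% interval -0.88 to -0.20, limma adjusted p = 0.29). Tgtp1 is a near copy (99.8% identity), and the deposited value of each gene depends on how shared fragments were split. Summed over the pair, FPKM was 18.8, 22.6 and 19.7 in WT and 11.4, 15.8 and 11.3 in KO, so the sum did not overlap either and the KO mean was 0.631 times the WT mean.

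Ifi47, a further IRG gene, stood at 4.18, 4.02 and 4.26 FPKM in WT hearts and at 2.09, 3.78 and 1.66 FPKM in KO replicates 1 to 3. WT hearts were close together (SD 0.125) and KO hearts spread widely (SD 1.12), without overlap (-0.69 ± 0.23, limma adjusted p = 0.418). Ifi47 lies on the same strand as Olfr56, with 20388 bases in common. Irgm1, which regulates the other IRG proteins, stood at 7.65, 8.63 and 8.02 FPKM in WT hearts and at 5.24, 8.18 and 4.94 FPKM in KO. KO replicate 2 was in the middle of the WT range (-0.40 ± 0.17, limma adjusted p = 0.602).

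Iigp1, the most abundant of the GTPases and an effector against Toxoplasma, did not follow. It stood at 36.8, 52.9 and 38.5 FPKM in WT hearts and at 35.7, 46.7 and 37.8 FPKM in KO replicates 1 to 3, with overlapping ranges and a difference of -0.07 ± 0.18 (95% interval -0.48 to 0.34, limma adjusted p = 0.953). The 4 guanylate-binding proteins, larger GTPases that coat such vacuoles, differed by -0.11 (Gbp5), -0.18 (Gbp2), -0.30 (Gbp3) and -0.43 (Gbp7), with limma adjusted p of 0.695 or more. KO replicate 2 was above all WT hearts for Gbp3 and Gbp7 in FPKM, and for Gbp7 but not Gbp3 in scaled FPKM.

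**Figure D4:**
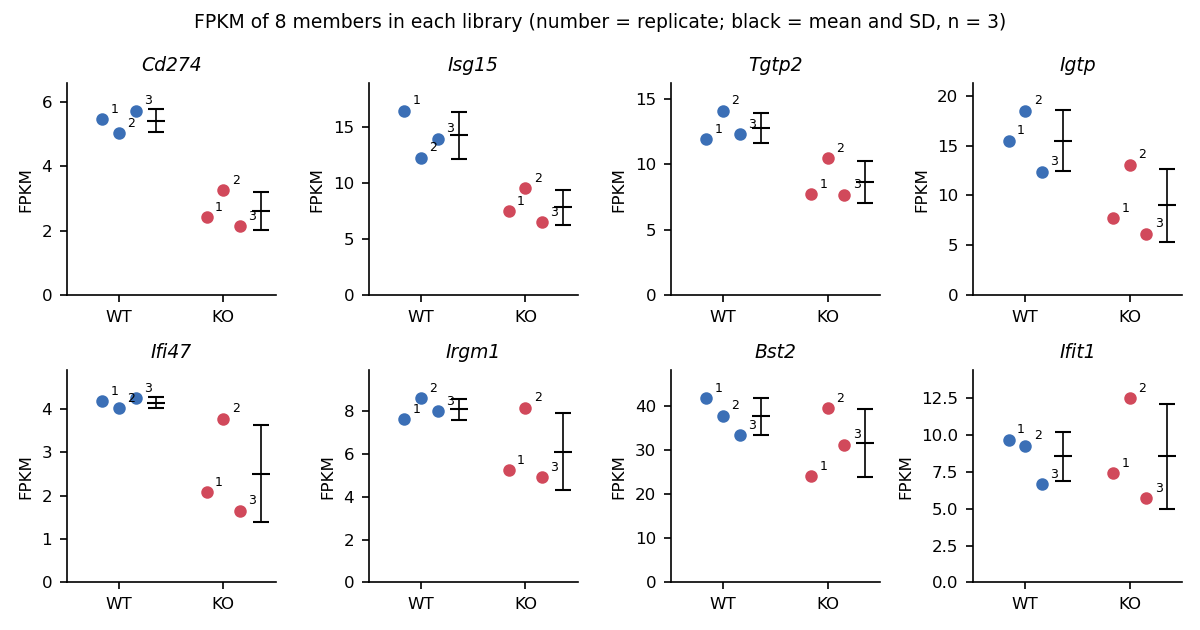
FPKM (y axis) of 8 members in each heart, numbered by replicate and split by genotype (x axis), with the mean and SD in black. For Cd274, Isg15, Tgtp2 and Ifi47 no KO heart reaches a WT heart, while for Igtp, Irgm1, Bst2 and Ifit1 KO replicate 2 lies within or above the WT values. In scaled FPKM, not drawn here, Igtp did not overlap.

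Cd274, which encodes the checkpoint ligand PD-L1, had the largest difference of all members. It stood at 5.46, 5.03 and 5.73 FPKM in WT hearts and at 2.42, 3.26 and 2.14 FPKM in KO replicates 1 to 3, so every KO heart was well below every WT heart. The KO mean was 0.483 times the WT mean (2.61 ± 0.584 against 5.41 ± 0.357 FPKM), a difference of -0.93 ± 0.15 with a 95% interval of -1.28 to -0.58. Its limma adjusted p was 0.07, and 0.0882 to 0.235 with 1 library left out. The antisense transcript AC119228.1 overlaps it on the opposite strand, and whether strand was used in counting is not given in the sources used here. The RefSeq window of Cd274 held neither the ISRE nor the GAS letters.

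Ifi27, a mitochondrial protein gene, stood at 13.0, 15.4 and 9.99 FPKM in WT hearts and at 9.06, 8.98 and 8.29 FPKM in KO replicates 1 to 3. The KO hearts were close together and just below the lowest WT heart (-0.49 ± 0.16, limma adjusted p = 0.4). Parp14, an ADP-ribosyltransferase, stood at 10.0, 9.98 and 8.64 FPKM in WT hearts and at 6.06, 8.97 and 6.13 FPKM in KO. KO replicate 2 overlapped WT for Parp14 in FPKM and the other KO hearts did not (-0.42 ± 0.14, limma adjusted p = 0.448). In scaled FPKM no KO heart overlapped WT for Parp14. Ifi44 and Xaf1 differed by -0.29 ± 0.22 and -0.20 ± 0.21.

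The remaining members of this role were above 0. Ifi27l2a, a relative of Ifi27 and the most abundant of all members, stood at 57.0, 66.6 and 52.1 FPKM in WT hearts and at 48.3, 72.5 and 74.1 FPKM in KO replicates 1 to 3. Unlike most members it was highest in KO replicate 3, and the genotypes overlapped (0.14 ± 0.18, limma adjusted p = 0.887). Rtp4, an inducible receptor transporter, stood at 5.59, 5.81 and 5.69 FPKM in WT hearts and at 5.55, 10.8 and 4.88 FPKM in KO. Its difference of 0.22 ± 0.24 (limma adjusted p = 0.86) was -0.06 without KO replicate 2, the highest library. Ifi35 differed by 0.06 ± 0.13.

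Genes that restrain the response were lower in 7 of 11 tested cases, with a median difference of -0.21 and 0 called. Socs1, an induced inhibitor of the JAK kinases, stood at 2.29, 1.86 and 2.23 FPKM in WT hearts and at 0.703, 0.832 and 0.954 FPKM in KO replicates 1 to 3. All KO hearts were far below all WT hearts (-0.97 ± 0.16, limma adjusted p = 0.073, 0.108 to 0.271 with 1 library left out). Ptpn6, the gene of the phosphatase SHP-1 of blood cells, stood at 13.2, 11.8 and 10.8 FPKM in WT hearts and at 5.49, 10.9 and 5.21 FPKM in KO. KO replicate 2 reached the lowest WT heart in unscaled FPKM (-0.75 ± 0.23, limma adjusted p = 0.372), and without that library Ptpn6 was called (limma adjusted p = 0.0475). Nlrc5, the class I transactivator, differed by -0.50 ± 0.20 (limma adjusted p = 0.53).

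Beyond the members, 41 of 57 tested interferon-induced genes were lower, with a median of -0.14, 9 lower and 1 higher at an unadjusted p under 0.05, and 0 called. Tgtp1 stood at 6.83, 8.49 and 7.39 FPKM in WT hearts and at 3.75, 5.27 and 3.6 FPKM in KO replicates 1 to 3 (-0.78 ± 0.16, limma adjusted p = 0.148), and shares fragments with Tgtp2 as its near copy. Gbp10 stood at 2.54, 6.62 and 2.19 FPKM in WT hearts and at 0.808, 1.21 and 1.09 FPKM in KO (-1.34 ± 0.36, limma adjusted p = 0.29). Gbp6 stood at 7.96, 13.0 and 7.39 FPKM in WT hearts and at 4.52, 5.08 and 6.17 FPKM in KO (-0.75 ± 0.23, limma adjusted p = 0.378). For all 3 genes the KO hearts were below the WT hearts, and WT replicate 2 was highest. They were picked as the 3 of smallest p, which favours such a gap. Of the 57 genes 6 had all KO libraries below all WT libraries, against 1099 of 14656 tested genes (7.5%). With 1 library left out the difference of Gbp10 ran from -1.57 to -0.89. Over all 117 further pathway genes 90 were tested, 64 were lower, 26 higher and 0 called, with 14 lower and 1 higher at an unadjusted p under 0.05 and a median of -0.12.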

How the data were processed

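Libraries were made from Trizol RNA of 3 WT and 3 KO hearts with an Illumina TruSeq kit, per the labels, which gave the groups by title. The deposited unit is FPKM, one value for each gene and heart, in a table that carries the word counts in its name: 37.2% to 40.4% of values in a library are not whole, and the unit was inferred from their steps with transcript length. Bowtie 0.12.2 and the builds mm8 and mm9 are listed, with no role, per the submitters' processing notes. Each of the quantification tool, annotation, filters and use of strand is not given in the sources used here. All 37 mitochondrial genes are listed at 0 in every library, and 8 rows carry 44.9% to 57.9% of all FPKM, which weighs on every other value.

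Identifiers were matched to GENCODE M21 (GRCm38) for 52403 of 52550 rows, and no coordinate was converted. Genes with at least 0.5 FPKM in 3 libraries were fitted by genotype in all 6 libraries on log2(FPKM / trimmed-mean factor + 0.5) with limma 3.58.1 in R 4.3.3 (mean-variance trend, empirical Bayes, two-sided, Benjamini-Hochberg over 14656 genes, call at adjusted p under 0.05). Trims were 0.3 on ratios and 0.05 on levels. The fit was also run on simulated data with independent noise and with changes larger than any member's difference. That run does not show how the fit performs for smaller differences or for shifts shared by many genes. Near copies were found with BLAST+ 2.17.0 (at least 90% identity over 50% of the transcript). Fragment numbers and depths are approximate, from the smallest steps of FPKM times length. The labels name no litter or session, so a p-value reflects only how far these 6 samples scatter, which may be technical.

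The members and lists were chosen with earlier results of these data known. Values in every library are given for the 12 members of smallest p, the member of highest mean in each role, the 3 of largest positive difference, and the 3 other pathway genes of smallest p in each list, of which 1 is not reported here. Ifit1, Oas3 and the receptor chains are named besides, chosen after their values were seen. Alternatives were other pseudocounts, filters, scalings and variance models, a replicate block and leaving out each library. Same-numbered WT and KO libraries had deviations correlated at 0.00758, -0.0357 and 0.18, so the numbers were not taken to pair hearts.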

Additional observations from a re-analysis of the deposited data

How the results depend on the processing

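Over 16 alternatives, 0 members were called, 31 to 40 stood lower, and the members' median lay between -0.323 and -0.106. The SD between replicates, 0.175, is close in size to the main median of -0.205. Moves smaller than that SD therefore do not show that the size of the difference is stable. Of 302 values of the 19 members chosen by the naming rule, 299 kept their direction and stayed short of the threshold. The 3 that turned did so with 1 library left out: Ddx58 ran from -0.30 to 0.03, Iigp1 from -0.22 to 0.10 and Rtp4 from -0.06 to 0.42, with the turn without KO replicate 3, WT replicate 2 and KO replicate 2. Of all 43 tested members 14 changed sign with some library left out, the other 11 being Usp18 (-0.28 to 0.07), Trim25, Stat2, Ifit1 (-0.29 to 0.18), Oas1a, Oas2, Oasl1, Oasl2, Gbp5 (-0.30 to 0.10), Ifi35 and Xaf1. The count of calls over all genes, 55, was 20 without a filter on low values, where more genes are tested, and 12 to 36 with 1 library left out, where fewer samples enter. Other pathway genes called numbered 0 to 1 with 1 library left out (Ptpn6, without KO replicate 2). Changes of scaling moved the median of all genes by at most 0.011. With the replicate block 42 genes and 0 members were called, and the members' median was -0.205. WT replicate 1 correlated best with KO replicate 2 (0.193), not with its own number. Depth of 5190000 to 9400000 fragments limits low members such as Oas3, Mx1 and Mx2, and 3 hearts a genotype limit the precision of every difference.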
